A study of Bos taurus with 147 samples.

Results

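The arrays described here compared treated with control bovine bone marrow stromal cells at the labelled times of 3d, 6d and 14d. They were chosen by their labels and are 6 of the 147 arrays of the series: at each time, 1 array carried treated cells in Cy5 and control cells in Cy3, and 1 array carried the same pair with the dyes exchanged. A further 6 arrays of the same cells, treated against control at 0H, 6H and 24H in the same dye-swapped layout, gave the early values and a share of the error estimate. The treatment, the source of the marrow, and whether the arrays of a dye swap shared RNA extracts are not given in the sources used here, so that P-values measure the spread between arrays, which may be technical.

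Bone marrow stromal cells are adherent, fibroblast-like cells that secrete extracellular matrix and support blood formation. Some of them are precursors that can become bone-forming cells, cartilage cells or adipocytes, and the matrix genes, growth factor binding proteins and lipid genes they express shift with such changes. The probes of the array came from muscle and fat, so that many genes known from marrow were not on it.

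Values are log2 ratios of treated over control, centred on the median of each array, and a positive value means a higher level in treated cells. Of 19200 spotted elements, between 13474 and 16899 gave a usable ratio on a late array, the fewest on the 3d arrays (13905 and 13474). After elements of a gene were averaged, 9246 features were tested, of which 811 were named genes and the rest single elements without a gene name. Dye effects of single genes were strong: across features, late arrays with the same dye layout correlated at Spearman's rho 0.24 to 0.54, against -0.07 to 0.05 for the dye-swapped arrays of a time, and a dye term was therefore fitted for every feature. A ratio from bulk cells cannot tell fewer cells of a type from less RNA per cell, and holds no level, so that the presence of stromal marker RNA could not be checked. Of 15 stromal and fibroblast markers 9 were measured and 1, COL1A1, passed the test of the mean late change, as lower (-0.52). This is a share near the 8.57% of all features that passed.

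Averaged over 3d, 6d and 14d, 410 features (4.43%) were higher and 382 (4.13%) lower in treated cells at an adjusted P under 0.05 (limma, Benjamini-Hochberg over all features), together 792 or 8.57%. Unnamed probes were printed in duplicate and each spot counted as a feature. With such spots averaged, 389 of 6587 features passed, 215 higher and 174 lower. Among the named genes 59 were higher and 33 lower, and 46 of these 92 changed more than 1 on the log2 scale. Of the 92, 82 had the same sign on every late array that measured them, as did 599 of the 792 features that passed. The mean was taken over these same arrays, so that agreement in sign goes with passing and is no separate evidence. Over all features 6.35% were higher and 6.93% lower on every such array. The leading genes were a retinoic acid carrier, secreted modulators of Wnt and insulin-like growth factor signals, and glycolytic enzymes on the higher side. On the lower side were elastin, the inhibitor of matrix breakdown TIMP3, the inhibitor of calcification MGP, and lysosomal proteases.

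**Figure D1:**
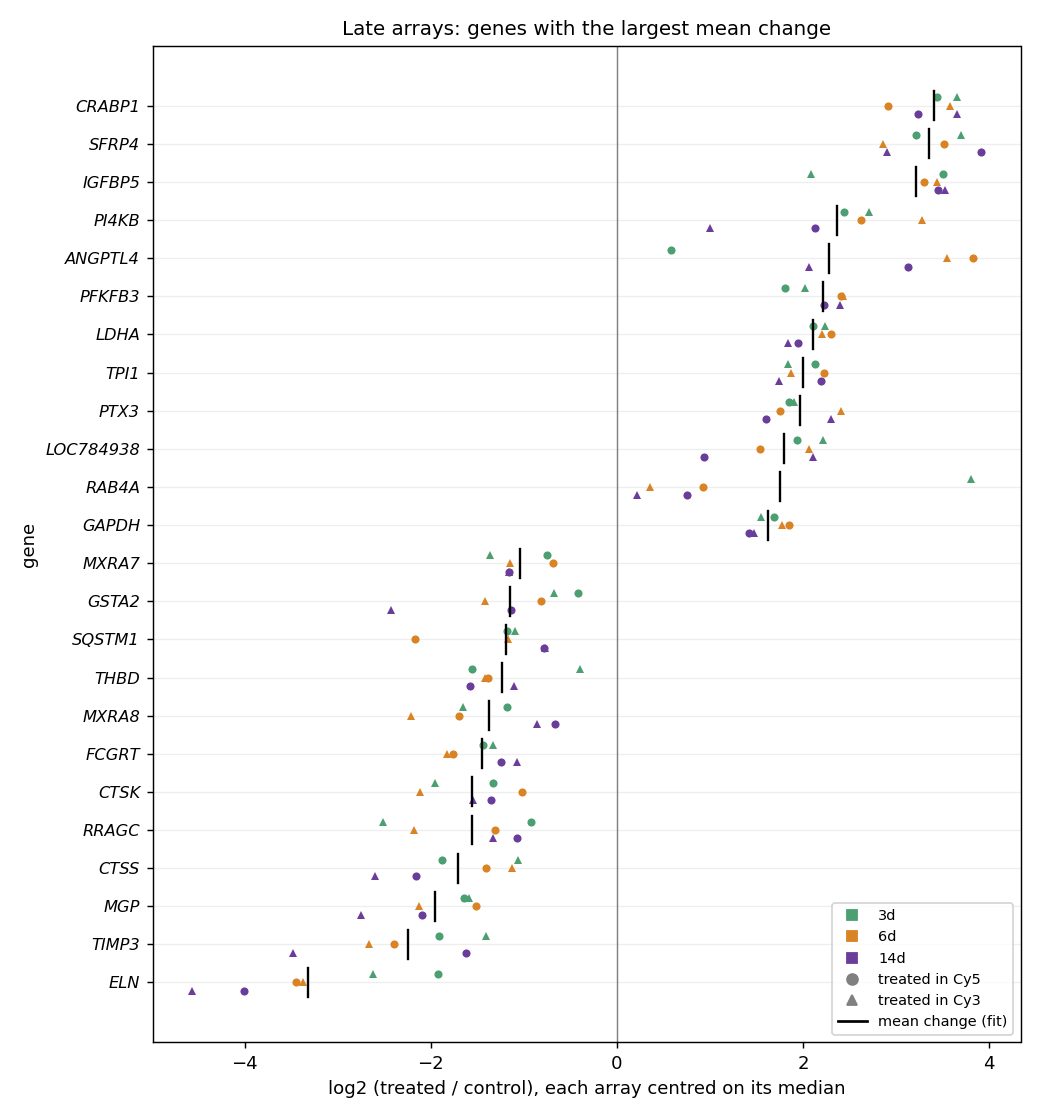
Log2 ratio of treated over control (x axis) on each late array for the 12 highest and 12 lowest named genes by mean change (y axis), among those that passed with 1 sign on all late arrays, with colour for the time, circles for treated in Cy5, triangles for treated in Cy3 and a black bar for the fitted mean change. All points of CRABP1, SFRP4 and IGFBP5 lie right of 2, and all points of ELN lie at or left of -1.92.

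CRABP1, which carries retinoic acid in the cytosol, had ratios of 3.44 and 3.66 on the 3d arrays, 2.91 and 3.57 on the 6d arrays and 3.23 and 3.65 on the 14d arrays, the array with treated cells in Cy5 being given first here and below. All 6 arrays lay within 1 log2 unit, and the mean change was 3.41 ± 0.18 (SE), or 10.6-fold (adjusted P = 0.000368). SFRP4, a secreted protein that binds Wnt ligands, gave 3.22 and 3.70 at 3d, 3.51 and 2.85 at 6d and 3.91 and 2.90 at 14d, a mean of 3.35 ± 0.17 (adjusted P = 0.000198). IGFBP5, which binds insulin-like growth factors in matrix and serum, gave 3.51 and 2.08 at 3d, 3.30 and 3.44 at 6d and 3.45 and 3.52 at 14d. Its mean was 3.22 ± 0.18 (adjusted P = 0.000232), and all 14 of its elements with at least 5 late values were higher, by 1.17 to 4.55. The 3 genes were thus about as high at 3d as at 14d, apart from the single lower 3d array of IGFBP5.

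ELN, which encodes the elastin precursor, was the lowest named gene that passed. Its ratios were -1.92 and -2.62 at 3d, -3.45 and -3.37 at 6d and -4.00 and -4.56 at 14d. The arrays of the 3 times did not overlap, a pattern that was not counted over all features. All 10 of its measured elements were lower, by means between -3.95 and -3.09. The mean change was -3.32 ± 0.12 (adjusted P = 0.000198).

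Other matrix regulators were also lower. TIMP3, a matrix-bound inhibitor of metalloproteinases, gave -1.92 and -1.40 at 3d, -2.39 and -2.66 at 6d and -1.62 and -3.48 at 14d. All 6 arrays were lower but the 14d arrays differed widely, and the mean was -2.25 ± 0.27 (adjusted P = 0.0042). MGP, an inhibitor of calcification, gave -1.64 and -1.59 at 3d, -1.51 and -2.13 at 6d and -2.09 and -2.75 at 14d, a mean of -1.95 ± 0.12 (adjusted P = 0.000326). OGN, a small leucine-rich proteoglycan of bone and other connective tissues, moved the other way, with 0.74 and 1.38 at 3d, 0.82 and 0.96 at 6d and 1.78 and 1.63 at 14d (mean 1.22 ± 0.12, adjusted P = 0.00162). P4HB, a disulfide isomerase that is also a subunit of collagen prolyl hydroxylase, was higher as well (mean 1.37 ± 0.11, adjusted P = 0.000784).

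Collagens moved little beside elastin. Of 18 listed collagen genes 7 were measured, and 2 were lower: COL1A1 with a mean of -0.52 ± 0.10 and COL6A2 with -0.75 ± 0.12. COL12A1, a collagen that sits on the surface of fibrils, was higher (0.85 ± 0.17). The mean changes of COL3A1 (-0.35), COL1A2 (-0.10), COL4A1 (0.10) and COL5A3 (-0.43) did not pass, and the list median was -0.35, against -0.02 over all features. Among the 12 measured members of the list for other matrix proteins OGN was higher, ELN and MGP lower and 9 did not pass, among them FN1 (0.21), DCN (-0.22), SPARC (0.05) and FBN1 (-0.13). The list of matrix remodelling and crosslinking genes had 11 measured members, of which P4HB was higher and TIMP3, CTSK, CTSS and CTSB were lower. TIMP1 (-0.02) and TIMP2 did not pass. Beside these 3 lists, 4.43% of all features were higher and 4.13% lower.

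CTSK, a collagen-degrading lysosomal protease best known from osteoclasts, gave -1.33 and -1.96 at 3d, -1.02 and -2.11 at 6d and -1.36 and -1.55 at 14d (mean -1.55 ± 0.11, adjusted P = 0.000589). CTSS, a lysosomal protease of antigen-presenting cells that was also on the immune marker list, gave -1.88 and -1.07 at 3d, -1.41 and -1.12 at 6d and -2.16 and -2.59 at 14d (mean -1.70 ± 0.14, adjusted P = 0.000911). All arrays of both genes were below -1. FCGRT, the heavy chain of the neonatal Fc receptor, was lower on every array (mean -1.45 ± 0.10, adjusted P = 0.000438), as were MXRA8 (-1.38 ± 0.11) and THBD, the thrombin cofactor thrombomodulin (-1.24 ± 0.15). RRAGC, a GTPase that relays amino acid supply to the kinase mTOR, had a mean of -1.56 ± 0.17, SQSTM1, an autophagy receptor, of -1.19 ± 0.23, GSTA2, a glutathione transferase, of -1.15 ± 0.19 and MXRA7 of -1.05 ± 0.23, each with the same sign on all late arrays.

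Of 22 immune cell markers 4 were measured. CTSS was lower and CCL2, a chemokine that attracts monocytes and is also made by stromal cells, was higher, with ratios between 1.41 and 1.73 on the 6 late arrays (mean 1.61 ± 0.12, adjusted P = 0.00061). CCL2 read -1.07 in a self-hybridisation of the 0H treated RNA, where both channels held the same RNA. CD74 (-0.26) and S100A8 (-0.26) did not pass. Over all features 4.43% were higher and 4.13% lower. The endothelial markers EGFL7 (-0.71) and PLVAP (-0.37) did not pass, and none of 9 red blood cell markers was on the array. A part of immune cells in the ratios of CTSS and CTSK was not tested.

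Glycolytic genes, whose enzymes turn glucose into pyruvate and lactate, were the list with the most members higher in treated cells. Of 15 measured genes 8 passed as higher, where 4.43% of all features did, and none as lower. The list median was 0.90, against -0.02 over all features. The 8 genes were PFKFB3, LDHA, TPI1, GAPDH, ENO1, ALDOA, GPI and PKM, and each was higher on all 6 late arrays. PFKFB3, which makes the sugar phosphate that activates phosphofructokinase, gave 1.80 and 2.02 at 3d, 2.40 and 2.43 at 6d and 2.22 and 2.40 at 14d (mean 2.21 ± 0.10, adjusted P = 0.000198). LDHA, which reduces pyruvate to lactate, gave 2.11 and 2.23 at 3d, 2.30 and 2.20 at 6d and 1.94 and 1.84 at 14d (mean 2.10 ± 0.11, 4.30-fold, adjusted P = 0.000198). For both enzymes the 2 dye layouts gave nearly the same value at every time.

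The shared enzymes of the pathway followed, with means of 2.00 ± 0.13 for TPI1, 1.63 ± 0.10 for GAPDH, 1.55 ± 0.13 for ENO1, 1.47 ± 0.09 for ALDOA, 1.44 ± 0.11 for GPI and 0.90 ± 0.13 for PKM. GAPDH is often used as a reference gene, and here it was higher on every late array, between 1.42 and 1.85. On 60 of its 66 elements with at least 5 late values the mean was above 0. The members that did not pass included the muscle forms ENO3 (0.08), PGAM2 (0.23) and PFKM (0.36), and LDHB, which favours the reverse reaction to LDHA (-0.33), while PGK1 was at 0.57 ± 0.20 (adjusted P = 0.141). Citric acid cycle genes and respiratory chain genes had medians near 0 (-0.10 over 8 genes and 0.01 over 23), with 1 gene higher in each, PC (0.93) and COX7B (1.10). The 4 elements of COX7B were uneven, with means from 0.08 to 2.09.

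**Figure D2:**
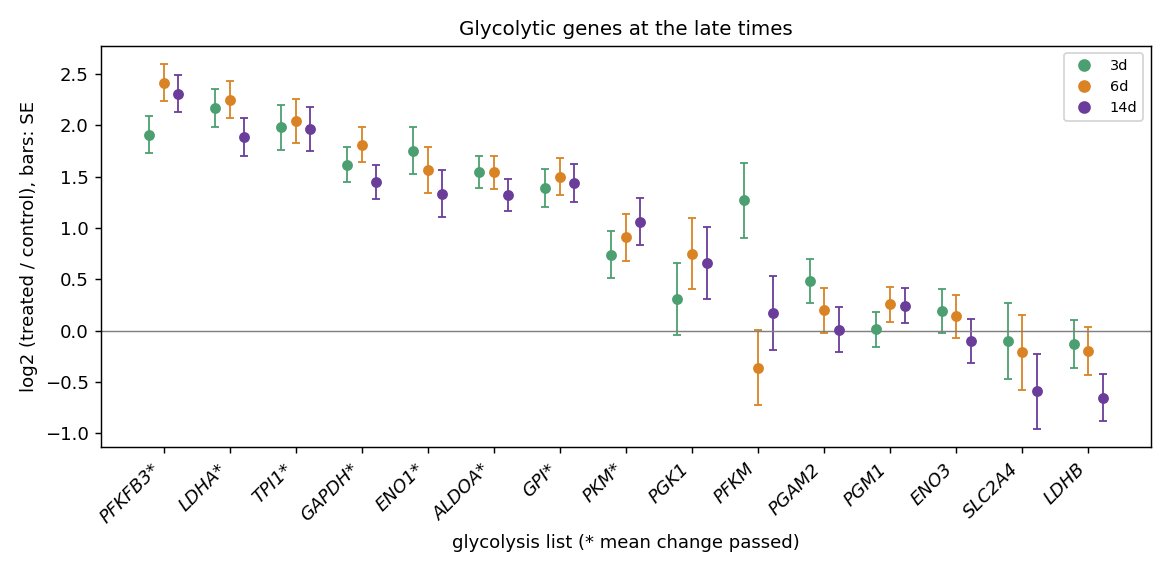
Log2 ratio of treated over control (y axis, bars are SE of the fit) at 3d, 6d and 14d for the 15 measured genes of the glycolysis list (x axis), with an asterisk where the mean change passed. The 8 genes that passed lie at 0.74 or above at all 3 times, while LDHB and SLC2A4 lie below 0.

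The fat cell genes on this array showed no common change. Of 23 measured genes of adipocyte differentiation 2 passed, both higher, a share near the 8.57% of all features that passed. The list median was 0.05. FABP4, the fatty acid carrier of adipocytes, was read by 78 elements and gave -0.30 and -0.21 at 3d, -0.02 and 0.02 at 6d and 0.01 and -0.00 at 14d. Its mean was -0.08, with a 95% interval of -0.32 to 0.15. ADIPOQ, the adipocyte hormone, had a mean of 0.05 with an interval of -0.39 to 0.49, and LEP (0.00), PLIN1 (-0.07), CFD (-0.09), LPL (0.27) and RBP4 (-0.62) did not pass either, so that 0 of 7 measured adipocyte markers passed and 0 had an unadjusted P under 0.05 (limma). At the share of all features a list of 7 genes would hold few or no passing genes, and the intervals do not exclude smaller changes.

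The 2 genes that were higher were ANGPTL4, a secreted inhibitor of lipoprotein lipase, and PLIN2, which coats lipid droplets in many cell types. ANGPTL4 gave 0.58 at 3d, where 1 array had no usable value and was left out, 3.83 and 3.55 at 6d and 3.12 and 2.06 at 14d (mean 2.27 ± 0.24, adjusted P = 0.0095). PLIN2 gave 1.00 and 1.40 at 3d, -0.03 and 1.03 at 6d and 0.00 and 1.43 at 14d, higher where treated cells were in Cy3 (mean 0.81 ± 0.16, adjusted P = 0.0272). Its 4 elements were uneven too, with means from 0.07 to 1.36. None of 10 measured genes of fatty acid synthesis passed (limma, 3 at an unadjusted P under 0.05), with SREBF1 at 0.97 ± 0.31 and FASN at 0.01 ± 0.19. The SREBF1 elements disagreed, 2 being higher and 2 lower, with means from -0.66 to 2.31. Of 9 measured genes of fatty acid oxidation only SLC25A20, the mitochondrial carnitine carrier, passed (1.17 ± 0.21), with 1 of its 3d arrays missing. Beside these 2 short lists, 8.57% of all features passed.

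Of 13 measured genes of the actin cytoskeleton and smooth muscle 4 were higher: ACTA2, the actin of smooth muscle and myofibroblasts (1.36 ± 0.11), ACTB (0.99 ± 0.10), TPM1 (0.79 ± 0.11) and TPM2 (0.66 ± 0.10). The list median was 0.49, and 4.43% of all features were higher. ACTA1, the skeletal muscle actin, was also higher (0.89 ± 0.10), but the actin genes are close in coding sequence and their cDNA probes may share signal, so that the isoforms are uncertain. Apart from ACTA1 and TPM2, none of 26 measured skeletal muscle genes passed, a share near the 8.57% of all features, and their median was 0.05. TUBA1A, a tubulin, was higher (1.13 ± 0.22), though in the self-hybridisation it read 1.80.

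Of 47 measured ribosomal protein genes 1, RPLP2 (0.44 ± 0.10), passed, and the list median was 0.20. By time this median was -0.01 at 3d, 0.21 at 6d and 0.33 at 14d, against -0.03 over all features at each time. No ribosomal protein gene passed at a single time, and the rise of the median was not tested. For this and the following lists, the share of all features was 4.43% higher and 4.13% lower. Among growth factors and their binding proteins, SFRP4, IGFBP5 and CCN1, a matricellular protein (0.95 ± 0.22), were higher of 10 measured, and IGFBP3 was at 1.78 ± 0.54 (adjusted P = 0.103). Of 11 measured redox and metal binding genes 4 were higher, namely MGST3 (1.05 ± 0.10), SOD2 (0.89 ± 0.11), PRDX2 (0.82 ± 0.11) and MT1A (0.74 ± 0.13), and FTL, the ferritin light chain, was lower (-0.70 ± 0.11). PRDX2 read 3.21 in the self-hybridisation. Of 14 measured chaperones P4HB was higher and HSPB6 (-0.90 ± 0.13) and CRYAB (-0.76 ± 0.13) were lower, and B2M, the light chain of MHC class I molecules, was lower too (-0.76 ± 0.12).

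Further genes among the highest were PTX3, a soluble pattern recognition protein (1.97 ± 0.32), PI4KB, a phosphatidylinositol kinase of the Golgi (2.36 ± 0.23), LOC784938 (1.80 ± 0.13) and RAB4A, a GTPase of recycling endosomes (1.75 ± 0.15). PTX3 lay between 1.60 and 2.40 on the late arrays. PI4KB lay between 1.00 and 3.27 but read 2.02 in the self-hybridisation. RAB4A gave 3.81 on 1 array at 3d, the other having no usable value, and between 0.21 and 0.93 on the 4 arrays of 6d and 14d, so that its mean rested on that array.

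**Figure D3:**
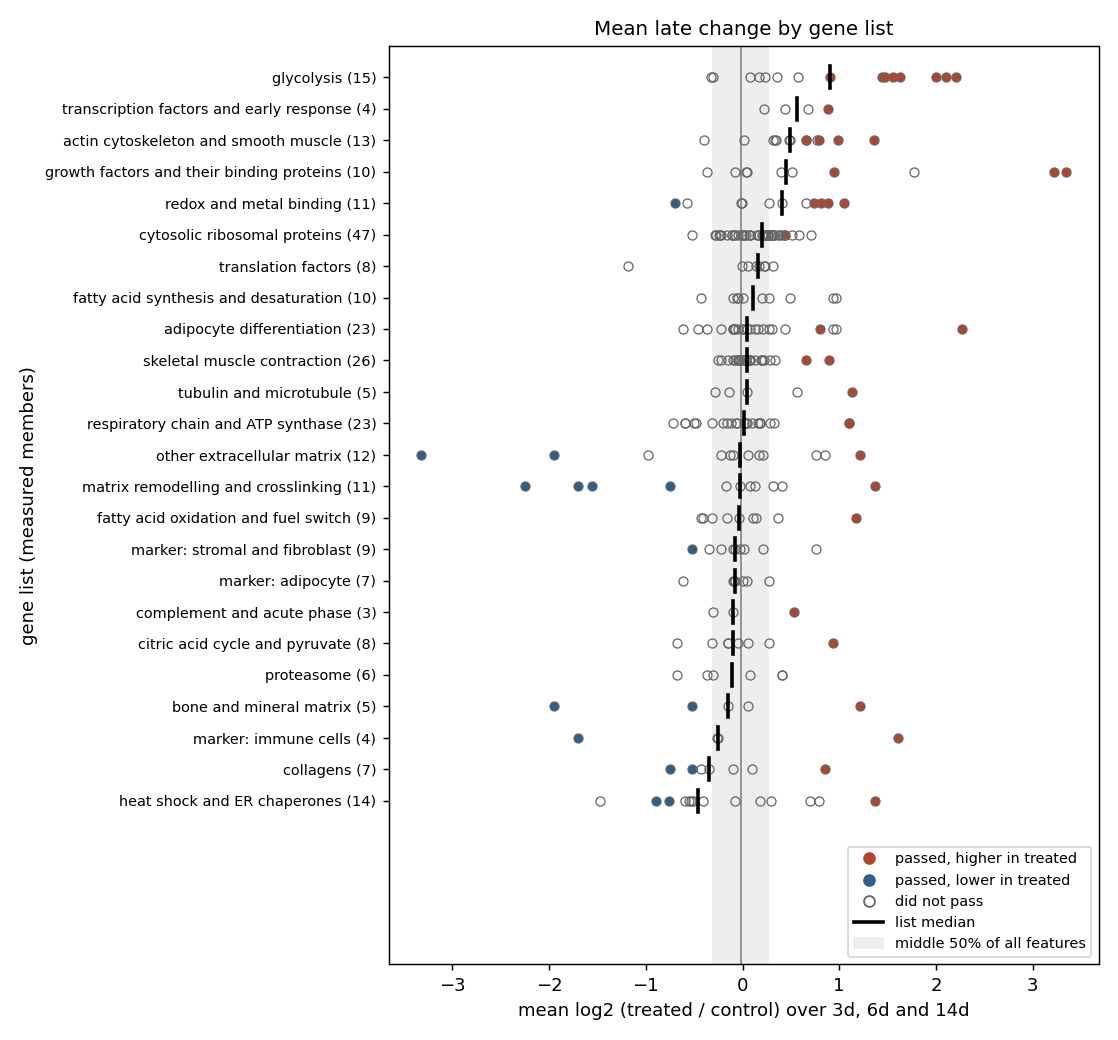
Mean late log2 ratio of treated over control (x axis) of every measured gene in the gene lists with 3 or more measured members (y axis, number of members in brackets), filled where the gene passed and open where it did not, with a black bar at each list's median. The grey band is the middle 50% of all features; the medians of glycolysis (0.90) and of heat shock and ER chaperones (-0.46) lie at the ends.

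The counts depended on how the error was estimated. Fitted on the 6 late arrays alone, which leave 2 residual degrees of freedom, none of the features passed for the mean change, although 1936 had an unadjusted P under 0.05 (limma), and with the 3 times as 3 replicates none passed and 1385 did. Leaving out a single array gave 602 and 555 features at 3d, 304 and 295 at 6d and 282 and 312 at 14d. Of these, 464 and 467, 286 and 271, and 273 and 293 were among the 792 of the main fit.

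Each time was also tested on its own. At 3d, 150 features (1.62%) were higher and 90 (0.973%) lower, or 2.6% in all. At 6d 118 (1.28%) were higher and 40 (0.433%) lower, or 1.71%, and at 14d 106 (1.15%) were higher and 40 (0.433%) lower, or 1.58%. Of the named genes, 16 passed at all 3 times: CRABP1, SFRP4, IGFBP5, PFKFB3, LDHA, TPI1, LOC784938, GAPDH, CCL2, ENO1, ALDOA and GPI were higher, and FCGRT, CTSK, MGP and ELN were lower at each. A further 11 of the 811 named genes passed at 2 of the times and 15 at 1. Over all 9246 features, 77 passed at all 3 times, 47 at exactly 2 and 219 at exactly 1. With the spread of the arrays made equal, the split at 3d was 95 higher and 33 lower. With the duplicate spots of unnamed probes averaged, 98 features passed at 3d (74 higher and 24 lower), 80 at 6d (64 and 16) and 78 at 14d (59 and 19).

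Among the named genes that passed at 3d, the highest were ACAT1 (5.50), RAB4A (4.11), CRABP1 (3.55) and SFRP4 (3.46), and the lowest ELN (-2.27), RRAGC (-1.72), CTSK (-1.65) and MGP (-1.62). ACAT1, a mitochondrial thiolase, and RAB4A had a usable value on 1 of the 2 arrays only, and ACAT1 was at 0.09 at 6d and -1.29 at 14d. Among those that passed at 6d they were ANGPTL4 (3.69), IGFBP5 (3.37), CRABP1 (3.24) and SFRP4 (3.18), and ELN (-3.41), EEF1B2 (-3.19), MXRA8 (-1.95) and MGP (-1.82). EEF1B2, a translation elongation factor, gave -2.91 and -3.46 at 6d, against -0.17 and 0.65 at 3d and -0.63 on the single 14d array that measured it. Among those that passed at 14d they were IGFBP5 (3.49), CRABP1 (3.44), SFRP4 (3.40) and PFKFB3 (2.31), and ELN (-4.28), MGP (-2.42), CTSS (-2.37) and CTSK (-1.45). TIMP3 was lower than MGP at both 6d (-2.53) and 14d (-2.55), and ANGPTL4 (2.59) and IGFBP3 (2.47) were above PFKFB3 at 14d, but they did not pass at these times.

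Without 1 of the 2 arrays of the time itself, no feature passed at 6d (765 and 983 at an unadjusted P under 0.05) or at 14d (701 and 1029), and 125 and 46 passed at 3d. Of these, only 58 and 22 were among the 240 features that passed at 3d in the main fit. They held 7 and 1 of its 28 named genes. The 3d arrays received the lowest weights of the late arrays when arrays were weighted by their fit (0.57, against 1.27 and 1.26), and with these weights none passed at 3d (978 at an unadjusted P under 0.05), 292 at 6d and 344 at 14d.

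A change that grows over the late times would differ between 14d and 3d. No feature passed for the change at 14d minus the change at 3d (limma, lowest adjusted P 0.13), although 894 had an unadjusted P under 0.05. The median standard error of this difference was 0.50 on the log2 scale, against 0.20 for the mean change. Among all features 138 (1.49%) were higher on all late arrays with fitted changes in rising order over 3d, 6d and 14d, and 112 (1.21%) lower in falling order, while 180 features of one sign ran towards 0. Of the 92 named genes that passed for the mean change, 19 ran away from 0 over the times and 14 towards it. Among all 792 features that passed, 111 ran away from 0 and 85 towards it.

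ELN moved furthest among the genes that ran away from 0 with 1 sign on all arrays: its change at 14d minus that at 3d was -2.01, with a 95% interval of -2.69 to -1.33 (adjusted P = 0.14). GSTA2 differed by -1.23 (interval -2.32 to -0.15), TIMP3 by -0.89 (-2.44 to 0.66; 0.02 without the 14d array of replicate 2) and ASS1, an enzyme of arginine synthesis whose mean change did not pass, by -1.59 (-4.68 to 1.49). On the higher side, PCYOX1, an oxidase that breaks down prenylated cysteines, differed by 1.02 (0.39 to 1.64), P4HB by 0.90 (0.26 to 1.54), IGFBP5 by 0.69 (-0.34 to 1.72), SRL, a protein of the sarcoplasmic reticulum, by 0.64 (-0.11 to 1.40) and RPS16 by 0.63 (-0.09 to 1.35). TPM1 (0.55), SOD2 (0.53) and MGST3 (0.50) followed, and none of these passed after adjustment.

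Of the genes with the highest mean change, CRABP1 differed by -0.11 between 14d and 3d (interval -1.18 to 0.96), SFRP4 by -0.05 (-1.02 to 0.92) and TPI1 by -0.02 (-0.75 to 0.71). Of the genes that ran towards 0, RAB4A differed by -3.63 (-4.68 to -2.58), resting on 1 array at 3d, LOC514457 by -1.16 (-1.88 to -0.45) and CCN3, a matricellular protein, by -0.87 (-1.87 to 0.13). PIK3C3, a lipid kinase of autophagy, was not one of these: its 1 element with at least 5 late values was lower (-0.55). It differed by -1.28 between 14d and 3d (-2.19 to -0.36), with 1 array missing at 3d. None passed after adjustment.

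**Figure D4:**
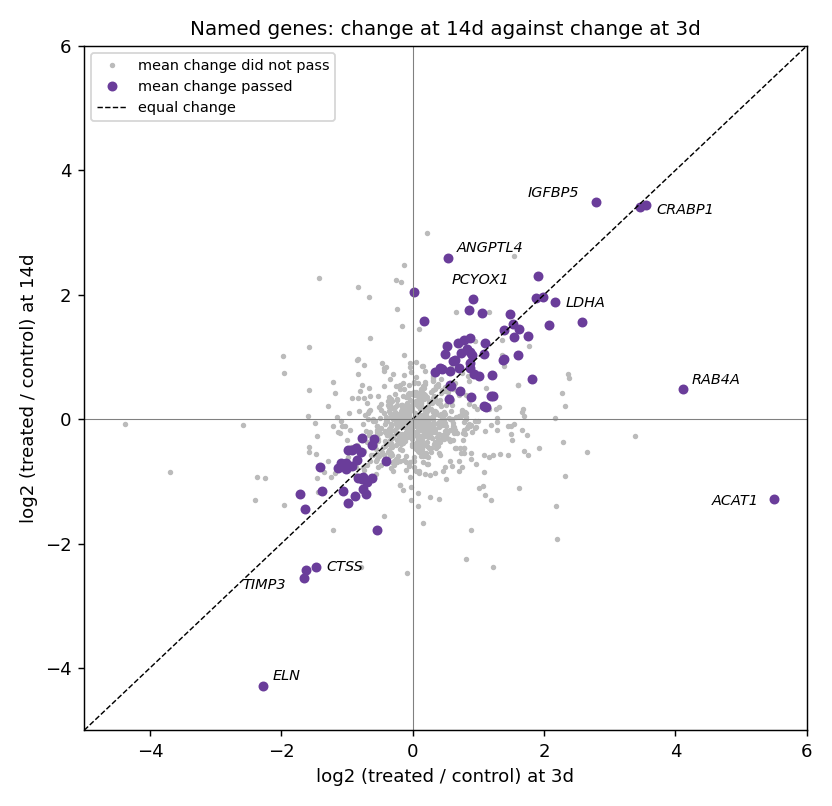
Log2 ratio of treated over control at 14d (y axis) against 3d (x axis) for the 811 named genes, in purple where the mean change passed, with a dashed line where both are equal. ELN lies below the line at -2.27 and -4.28, CRABP1 and LDHA lie near it, and ACAT1 and RAB4A lie far below it at the right.

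The late times were also compared with the early ones. Averaged over 3d, 6d and 14d and set against the average of 0H, 6H and 24H, 139 features (1.51%) had a higher and 34 (0.37%) a lower ratio late, 29 of them named genes. At 0H and 6H no feature passed (limma, 513 and 1330 at an unadjusted P under 0.05), and at 24H 7 did, among them 1 named gene, ACTA2. The call of late against early rested on few arrays: leaving out 1 array left 159 and 121 features at 3d, but 1 and 3 at 6d and 4 and 5 at 14d. With the duplicate spots of unnamed probes averaged, 101 features passed (83 higher and 18 lower).

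Some late changes were already seen at 24H and others were not. SFRP4 was at 2.57 and IGFBP5 at 2.05 at 24H, and MGP at -1.96 and TIMP3 at -2.02, though none of these passed there. CRABP1 was at 0.87 at 24H, on 1.07 and 0.67, and at 3.55 at 3d. ELN gave -0.23 and -0.82 at 24H, above all of its late arrays, and the late mean minus the early mean was -2.88 (adjusted P = 0.00583). MGST3, a microsomal glutathione transferase, stayed between -0.12 and 0.08 on the 6 early arrays and between 0.70 and 1.47 on the late ones.

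ACTA2 changed sign. It gave 0.83 and 0.32 at 0H, -1.12 and -1.22 at 6H and -2.24 and -2.64 at 24H, then 0.91 and 0.84 at 3d, 2.08 and 1.69 at 6d and 1.63 and 0.98 at 14d. The change at 24H was -2.44 (adjusted P = 0.0369), the change at 6d 1.88 (adjusted P = 0.00543), and the late mean minus the early mean 2.37 (adjusted P = 0.00583). ACTB had the same order with smaller values, -0.43 at 24H and 1.19 at 6d, and TPM1 was at -0.75 at 24H and 1.04 at 14d. The difference between late and early passed for all 3 genes, and for ACTA1 (1.14).

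**Figure D5:**
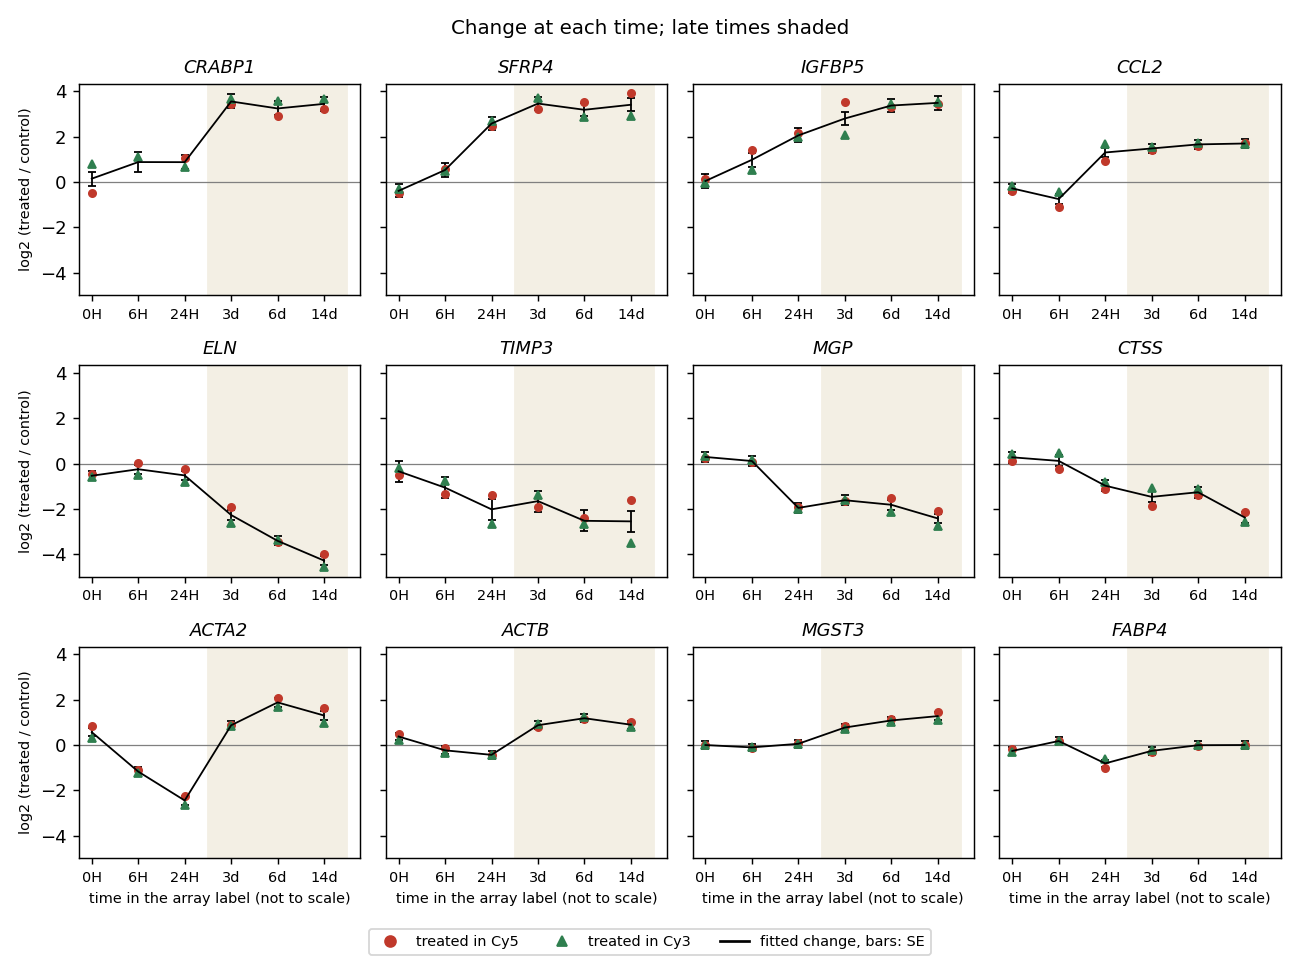
Log2 ratio of treated over control (y axis) at the 6 labelled times (x axis, not to scale) for 12 genes, with circles for treated in Cy5, triangles for treated in Cy3, a line through the fitted changes and bars for their SE; the late times are shaded. CRABP1 steps up between 24H (0.87) and 3d (3.55), ELN goes down from 3d on to -4.28 at 14d, ACTA2 turns from -2.44 at 24H to 1.88 at 6d, and FABP4 stays between -0.25 and 0.00 in the late times.

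A single array set 14d treated cells, in Cy5, against 6H control cells. On it CRABP1 read 4.09, SFRP4 3.77, IGFBP5 3.75, LDHA 2.15, GAPDH 1.45, ELN -3.51, TIMP3 -2.57, CTSS -2.78 and MGP -0.87, without a replicate or a dye swap. CCL2, which was between 1.67 and 1.72 against 14d control cells, read 0.24 there. On another single array, whose channel labels give 0h control and 3d control while its title differs, control cells at 3d read 0.65 for CRABP1, -0.76 for SFRP4, 0.55 for IGFBP5 and -0.23 for ELN relative to 0h.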

How the data were processed

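The deposited values are log2 ratios of Cy5 over Cy3 by the authors, from cDNA arrays of 9600 bovine probes printed in duplicate. The methods name a GenePix scanner and background correction for other arrays of the series, and the steps for these arrays are not given in the sources used here. Ratios of 16.61, where the table is capped, were treated as missing. The median of each array was subtracted, and elements of 1 gene symbol were averaged. Symbols came from the platform annotation: 4304 elements carried 1 gene name (969 genes), 180 several and 14716 none, and 4286 of the 4304 matched the bovine reference table. The direction of Cy5 over Cy3 was checked on fetal muscle arrays labelled in both dye orientations, which stand in the series' other table, of another array platform, and was not checked within the table used here.

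Features present on 10 or more of the 12 arrays, and on 5 or more of the 6 late ones, entered a limma 3.58.1 fit in R 4.3.3: 6 treatment effects, signed by the dyes, and a dye intercept, which is the same as the replicate number since replicate 1 had treated cells in Cy5. The residual had 5 degrees of freedom and the moderated test 1.84 more. Benjamini-Hochberg adjustment ran across all features, a gene passed at an adjusted P under 0.05, and the fit was tested on simulated data. For the mean change it recovered 50 of 100 features changed by 1 on the log2 scale and 86 of 100 changed by 2. It also called 8 unchanged features. A gene that did not pass may therefore still have changed. Intensities were not used here, so that neither background nor intensity-dependent dye bias could be corrected again. The number of arrays limits the precision.

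The arrays and gene lists were chosen with earlier results of these data known. Genes named were the 12 highest and 12 lowest by mean change with 1 sign on all late arrays, the 8 highest and 8 lowest for 14d minus 3d among genes with 1 sign on all late arrays and changes in order over the times, the 4 and 4 that passed at each time, the 3 genes of lowest P within each list and all measured markers; any other gene was picked with its values known. The lists without a result in the text had these counts. Of cartilage genes 0 of 16 were on the array, of cell cycle genes 2 of 32 and none measured. Translation factors (8 measured, 2 with an unadjusted limma P under 0.05), the proteasome (6, 2) and sterol synthesis (2, 1) had 0 genes passing. Of 5 bone and mineral matrix genes 1 was higher and 2 lower, of 4 early response genes 1 (ZFP36L1) and of 3 complement genes 1 (CLU) was higher. These lists are short, and 4.43% of all features were higher and 4.13% lower.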

Additional observations from a re-analysis of the deposited data

Results flagged for a closer look

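Named genes whose late and early changes differed by a test of the difference itself (the late mean minus the early mean, limma, adjusted P between 0.00583 and 0.0421) are given with that difference and, in brackets, the late mean and the early mean. All differences are on the log2 scale of treated over control. The early means themselves were not tested against 0, and several lie near it. Without the array of replicate 1 at 6d only 1 feature in all passed this test, and with any other single 6d or 14d array left out 3 to 5 passed.

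The 3 highest genes over the late times were already above 0 in the early mean. The difference was 2.78 for CRABP1 (3.41 and 0.63), 2.45 for SFRP4 (3.35 and 0.90) and 2.20 for IGFBP5 (3.22 and 1.02). PI4KB had a difference of 2.92 (2.36 and -0.56) and a ratio of 2.02 in the self-hybridisation.

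Among the glycolytic genes the difference was 1.16 for PFKFB3 (2.21 and 1.06), 1.56 for LDHA (2.10 and 0.54), 1.59 for TPI1 (2.00 and 0.41), 1.20 for GAPDH (1.63 and 0.42), 1.23 for ENO1 (1.55 and 0.32), 1.05 for ALDOA (1.47 and 0.42) and 0.97 for GPI (1.44 and 0.47).

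The cytoskeletal genes had late and early means of opposite sign. The difference was 2.37 for ACTA2 (1.36 and -1.01), 1.08 for ACTB (0.99 and -0.09), 1.14 for ACTA1 (0.89 and -0.25) and 0.98 for TPM1 (0.79 and -0.19), with probes of the actin genes that may share signal.

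Of the other genes with a higher late mean, the difference was 1.53 for LOC784938 (1.80 and 0.27), 1.52 for CCL2 (1.61 and 0.09), 0.92 for P4HB (1.37 and 0.45), 0.98 for OGN (1.22 and 0.24), 1.52 for CAP1 (1.25 and -0.27), 1.17 for BSG (0.94 and -0.23) and 1.06 for MGST3 (1.05 and -0.01).

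Of the genes with a lower late mean, the difference was -2.88 for ELN (-3.32 and -0.44), -1.51 for CTSS (-1.70 and -0.20), -1.43 for MGP (-1.95 and -0.52), -1.33 for CTSK (-1.55 and -0.23), -1.29 for FCGRT (-1.45 and -0.15), -1.56 for UBR1 (-0.64 and 0.93) and -1.19 for MXRA8 (-1.38 and -0.18).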

How the results depend on the processing

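The 74 single-gene results past the threshold kept their direction under every alternative run, while 15 of the 60 others changed sign under 1 or more. Each alternative reused these arrays, and the genes leading by mean change were chosen for 1 sign on all late arrays. A kept direction is therefore no separate evidence. On the 6 late arrays alone 0 features passed for the change at 3d, 6d and 14d and for the mean change (limma, 1476, 1066, 1023 and 1936 at an unadjusted P under 0.05), with fewer arrays to estimate the spread, and 0 with the dye-swapped pairs averaged and 3 times as replicates (1385). The replicate block and the dye term are the same column here, and without this replicate block the counts for 3d, 6d, 14d, the mean and late minus early were 70, 55, 26, 400 and 47. With array spreads made equal by the median absolute deviation they were 128 (3d), 71 (6d), 53 (14d) and 66 (late minus early). With single elements in place of gene means they were 611, 551, 577, 1453 and 545, and with the duplicate spots of unnamed probes averaged, an alternative chosen after seeing the data, 98, 80, 78, 389 and 101, of which 82 named genes for the mean change were all among the 92. Array weights gave 0 at 3d (978 at an unadjusted P under 0.05), 292 at 6d and 344 at 14d, and features on all 12 arrays 249 at 6d and 316 at 14d. The self-hybridisation as a further array gave 242 at 14d. For the mean change, leaving out a time left 416 (without 3d), 295 (without 6d) and 301 features (without 14d). For 14d minus 3d, 1 feature passed with the self-hybridisation and 57 with values at the upper limit kept. Leaving out 1 late array gave 46 to 125 features at 3d, 0 to 137 at 6d, 0 to 120 at 14d, 282 to 602 for the mean, 0 to 1 for 14d minus 3d and 1 to 159 for late minus early. The cause of these differences was not tested.

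The changes of sign, all in results that did not pass, were as follows. Without the 3d arrays the mean change was 0.19 for LGALS1, 0.045 for PLVAP, -0.20 for LPL, 0.00030 for FABP4, -0.018 for ADIPOQ and -0.48 for LEP. Without the 6d arrays it was 0.15 for CFD, 0.059 for COL1A2, 0.041 for TIMP1 and 0.11 for PLIN1. Without the 14d arrays it was 0.095 for CFD, 0.015 for DCN, 0.066 for TIMP1, -0.034 for VIM, -0.010 for ADIPOQ and 0.048 for PLIN1. With the median of elements it was 0.11 for LGALS1, 0.14 for TIMP1 and -0.11 for LEP, without centring 0.010 for TIMP1, and with equal spreads -0.0063 for VIM. Leaving out 1 late array gave mean changes from -0.26 to 0.075 for CFD, -0.40 to 0.25 for LGALS1, -0.13 to 0.084 for TIMP1, -0.045 to 0.073 for VIM, -0.67 to 0.15 for S100A8, -0.66 to 0.15 for CD74, -0.84 to 0.10 for PLVAP, -0.17 to 0.27 for ADIPOQ, -0.37 to 0.22 for PLIN1 and -0.49 to 0.50 for LEP, and a difference between 14d and 3d from -1.81 to 0.022 for TIMP3.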

Other observations

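Some further genes are given here that were picked with their values known, without a test as a group. Of the 7 measured genes whose symbols name a cathepsin, 4 passed as lower and none as higher, where 4.13% of all features were lower. These were CTSS (-1.70), CTSK (-1.55), CTSH (-0.90) and CTSB (-0.75), while CTSV (-0.39), CTSD (-0.18) and CTSF (-0.07) did not pass. CTSH gave -0.46 and -1.04 at 3d, -0.36 and -1.29 at 6d and -0.57 and -1.66 at 14d, lower on every array and lower still where treated cells were in Cy3, and it read -1.05 in the self-hybridisation. GABARAP, which sits on autophagosome membranes, had a mean of -0.91 ± 0.11, CD63, a lysosomal membrane protein, of -0.59 ± 0.11, and both were lower on all 6 arrays.

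Of the mitochondrial outer membrane channels, VDAC2 was higher on every late array, between 0.84 and 1.54 (mean 1.13 ± 0.13), and VDAC1 had a mean of 0.63 ± 0.12. VDAC3 was at -0.09 ± 0.15 and did not pass. ANXA1, a membrane-binding protein, was higher (0.95 ± 0.21), while ANXA2 (0.65 ± 0.41) and ANXA5 (0.33 ± 0.20) did not pass.

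CLU, a secreted chaperone, had ratios of 1.66 and 1.49 at 14d, against 0.06 and 0.29 at 3d and 0.20 and -0.48 at 6d. How many features had such a pattern was not counted, and no feature passed for the change at 14d minus that at 3d. IGFBP3 was at -0.13 at 3d, 2.99 at 6d and 2.47 at 14d, and its mean change did not pass.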
